A study of Mus musculus with 73 samples.

Results

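Lung tumors of CC10/SV40 T/t-antigen mice were compared with normal lung on 2-colour cDNA microarrays. The comparison takes every array labelled as lung hybridised against the reference RNA, 4 of tumor and 4 of normal tissue, which is 8 of the 73 arrays in the series. Both groups are FVB. The normal lungs are from wild-type mice, and the tumors carry a transgene in which the CC10 promoter drives the SV40 T/t-antigen. Total RNA of each tissue was labelled with Cy3 and set against Stratagene Universal Reference RNA in Cy5. Of the other arrays, 38 hybridise mammary tumors of several models directly and were not used. The arrays against the reference RNA also hold SV40 tumors of other sites, of which the mammary tumors (C3(1) promoter, FVB) and prostate tumors (TRAMP, C57BL/6) are used below where the lung differs from them. In each of them normal tissue of the same strain is the control, with 4 normal and 4 tumor arrays of mammary gland and 4 normal and 5 tumor arrays of prostate. Arrays of seminal vesicle tumor and normal seminal vesicle (C57BL/6) are not compared with the lung tumors. They enter the shared estimate of the spread, the check of the log base and, as normal tissue, the check of normal lung. The labels used here give no age or sex, and do not say whether the arrays of a group come from separate animals or from pooled tissue, so p-values measure the spread between arrays and that spread may be technical.

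The SV40 early region encodes the large T antigen, which binds and inactivates p53 and the Rb family, and the small t antigen, which displaces subunits of the phosphatase PP2A. Loss of Rb frees the E2F factors, which switch on the genes of DNA replication and, through further complexes, those of mitosis. CC10 is the older name of the product of Scgb1a1, the main secreted protein of club cells, the nonciliated secretory cells of the airway. Its promoter places the oncogene in these cells. Alveolar type 2 cells make surfactant, and type 1 cells form the thin wall of the alveolus. In whole-tissue RNA fewer cells of a type and less RNA per cell cannot be told apart, and this holds for every marker described below.

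All values are log2 ratios of a sample over the reference RNA, so they compare a gene between arrays and not 1 gene with another. A change is the mean over tumor arrays minus the mean over normal arrays, with the standard error that limma fitted, and values of single arrays are given in the order 1 to 4. A gene rose or fell when its adjusted p was under 0.05. Each lung array held between 9529 and 9570 values of 9596 features, with medians from -0.03 to 0.00. Normal arrays correlated with one another at r = 0.82 to 0.91 across genes, tumor arrays at 0.83 to 0.92, and arrays of different groups at 0.51 to 0.67. Tumor array 3 had the lowest correlations among the tumors. Normal array 1 and tumor array 3 lay outside the block of neighbouring array database numbers that held the other lung arrays. Normal lung was set against the mean of the other 3 normal tissues of the series, and 19.9% of 6754 genes were higher in normal lung. Of 13 club cell markers 12 were higher there, as were 15 of 17 alveolar type 2 and 7 of 9 alveolar type 1 markers, with the surfactant gene Sftpc higher by 6.61 and Scgb1a1 by 4.32. Of 9 ciliated cell markers 3 were higher and 2 lower. The direction of the ratio was itself read from lung markers, so these directions are no separate check of the label.

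Between tumor and normal lung 2474 of 6774 genes passed, which is 36.5% of those tested, with 1095 higher (16.2%) and 1379 lower (20.4%). At least a 2-fold change was met as well by 480 genes (7.09%), 216 of the higher genes (3.19%) and 264 of the lower genes (3.9%). In 2332 genes (34.4%) no tumor array overlapped any normal array. The median change over all genes was -0.06. Where 0 members of a list passed in a direction by limma, 0 also passed at an unadjusted p under 0.05, except for 1 p53 target and 1 neuroendocrine gene that were higher and 1 skeletal muscle gene that was lower. These shares are the background for the counts of the gene lists, each of which is given as the number of measured members that rose or fell.

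**Figure D1:**
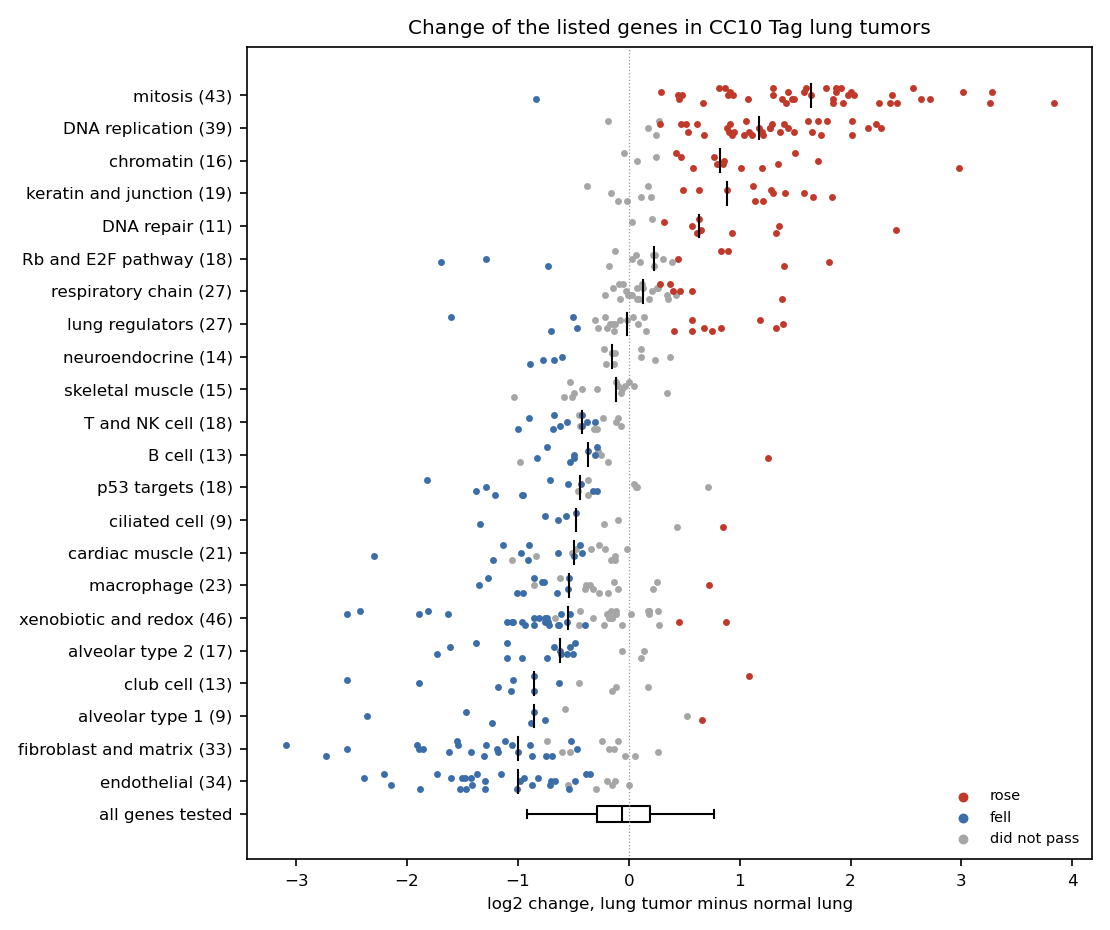
Log2 change from normal lung to lung tumor (x axis) of every measured member of 22 gene lists (y axis, number of members in brackets), with members that rose in red, members that fell in blue and the rest in grey. Black bars mark the list median, and the box at the bottom shows the median, quartiles and, as whiskers, the span without the extreme tails of all 6774 genes. The mitosis list lies almost wholly to the right and the endothelial list almost wholly to the left.

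The genes of cell division were higher in the tumors. Of 43 mitosis genes 42 rose and 1 fell, with a median change of 1.65. Of 39 DNA replication genes 35 rose and none fell (median 1.17). For DNA repair 9 of 11 rose (median 0.63), and for chromatin 13 of 16 (median 0.82). Groups did not overlap in 41 of the 43 mitosis genes and in 33 of the 35 replication genes that rose.

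Anln, the actin-binding anillin of the cleavage furrow, had the largest rise of all genes whose groups did not overlap. It stood at -2.40, -2.60, -2.62 and -2.66 in normal lung and at 1.45, 1.20, 1.13 and 1.28 in tumors, a change of 3.83 ± 0.18 (adjusted p = 4.97e-17). Kif11, the kinesin that pushes spindle poles apart, stood at -2.02, -2.20, -2.27 and -2.66 in normal lung and at 1.24, 0.86, 0.92 and 0.92 in tumors, a change of 3.27 ± 0.22. In both genes the 4 tumor arrays lay close together and far above all normal arrays. Esco2, which acetylates cohesin in S phase, rose by 3.48 ± 0.17, Hells, a chromatin remodelling helicase, by 2.97 ± 0.20, Smc4 of condensin by 2.72 ± 0.26 and Nusap1 of the spindle by 2.57 ± 0.26. The spindle pole protein Aspm rose by 2.43 ± 0.21 and the kinase Melk by 2.42 ± 0.19. Mki67, the antigen used to stain cycling cells, stood at -0.92, -0.84, -0.52 and -1.89 in normal lung and at 1.83, 1.25, 1.69 and 1.59 in tumors, and its normal array 4 lay below the other 3. The only mitosis gene that fell was Ube2c, named here after its value was seen, which encodes a ubiquitin-conjugating enzyme of the anaphase-promoting complex. Ube2c stood at -1.07, -1.04, -1.14 and -0.86 in normal lung and -2.0, -1.83, -1.65 and -1.99 in tumors (change -0.84 ± 0.17). It was measured by 1 feature, and it also fell in the mammary tumors (-0.90 ± 0.17).

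Among the replication genes Pola1, the catalytic subunit of DNA polymerase alpha, stood at -1.32, -0.94, -0.65 and -1.11 in normal lung and at 1.62, 1.38, 0.76 and 1.32 in tumors, a change of 2.27 ± 0.17 (adjusted p = 1.26e-11). Mcm5 of the replicative helicase stood at -1.85, -1.41, -1.25 and -1.91 and 0.50, 0.59, 0.87 and 0.53, a change of 2.23 ± 0.20. Tumor array 3 was the lowest tumor in Pola1, and neither gene's groups overlapped. Pclaf, which binds the clamp PCNA, rose by 2.16 ± 0.18 and Gmnn, the licensing inhibitor geminin, by 2.02 ± 0.17. The 4 replication genes that did not pass were Gins1 (0.28, called without normal array 4 at 0.37), Gins3 (0.25), Pold2 (0.17) and Orc5 (-0.19). Of the repair genes, Brca1 of homologous recombination stood at -1.47, -1.16, -1.14 and -1.39 in normal lung and at 1.44, 0.88, 1.0 and 1.15 in tumors (change 2.41 ± 0.17). The helicase Blm rose by 1.33 ± 0.15, Rad51ap1 by 1.36 ± 0.24 and Xrcc6, the Ku70 end-joining protein, by 0.93 ± 0.13. Xrcc5 (0.21), the Ku80 partner of Xrcc6, and Chek2 (0.03) did not pass. Among chromatin genes Hmgn2 rose by 1.70 ± 0.20, Hmgb1 by 1.35 ± 0.17 and Eed of Polycomb complex 2 by 0.77 ± 0.10, while Hdac1 (0.24), Nasp (0.07) and Dnmt3b (-0.04) did not pass. The genes listed here as not passing were chosen after their values were seen.

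The promoters of the 2 genes with the largest rises in the mitosis list and of the 2 with the largest in the replication list are shown, since both lists rose and each of these promoters holds an E2F or CHR match. The sequences are RefSeq's for build GRCm38.p6, 250 bases before to 50 after the first listed start, read 5′ to 3′ on the strand of the gene. They lie at chr9:22389157-22389456 (minus strand) for Anln, chr19:37376132-37376431 (plus) for Kif11, chrX:93632106-93632405 (minus) for Pola1 and chr8:75109259-75109558 (plus) for Mcm5. Capitals mark, on either strand, the E2F form TTCCCGC or its variants TTGGCGC together with TTCGCGC as well as TTGCCGC. They also mark the cell cycle homology region (CHR) as TTTGAA or in the form TTCGAA, besides the box CCAAT, and matches may overlap.
Anln: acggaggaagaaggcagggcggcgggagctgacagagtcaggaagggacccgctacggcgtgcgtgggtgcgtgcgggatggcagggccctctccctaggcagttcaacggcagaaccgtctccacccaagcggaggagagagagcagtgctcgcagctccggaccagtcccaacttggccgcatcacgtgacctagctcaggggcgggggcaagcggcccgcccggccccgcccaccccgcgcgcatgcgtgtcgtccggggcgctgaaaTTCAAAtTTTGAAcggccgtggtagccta
Kif11: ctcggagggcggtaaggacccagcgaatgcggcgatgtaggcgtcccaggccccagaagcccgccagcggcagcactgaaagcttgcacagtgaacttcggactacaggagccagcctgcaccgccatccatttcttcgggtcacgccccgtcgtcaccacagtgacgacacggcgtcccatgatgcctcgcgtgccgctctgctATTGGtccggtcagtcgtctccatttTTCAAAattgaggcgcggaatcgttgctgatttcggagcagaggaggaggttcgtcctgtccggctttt
Pola1: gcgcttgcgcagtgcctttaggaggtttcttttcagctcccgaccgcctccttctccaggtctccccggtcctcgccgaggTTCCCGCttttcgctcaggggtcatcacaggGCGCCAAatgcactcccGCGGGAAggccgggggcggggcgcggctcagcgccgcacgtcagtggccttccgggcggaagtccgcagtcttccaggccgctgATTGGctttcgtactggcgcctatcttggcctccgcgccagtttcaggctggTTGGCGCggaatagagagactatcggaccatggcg
Mcm5: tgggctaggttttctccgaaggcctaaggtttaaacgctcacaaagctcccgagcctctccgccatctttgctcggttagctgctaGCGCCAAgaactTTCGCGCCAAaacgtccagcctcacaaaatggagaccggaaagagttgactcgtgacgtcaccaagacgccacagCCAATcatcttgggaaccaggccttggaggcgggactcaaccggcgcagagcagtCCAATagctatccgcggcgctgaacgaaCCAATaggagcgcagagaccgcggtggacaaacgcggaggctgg
Anln holds 2 CHR matches and no E2F form, and Kif11 holds 1 CHR match and 1 CCAAT box. Pola1 holds 4 E2F matches and 1 CCAAT box, and Mcm5 holds 3 of each, with neither holding a CHR form. A match says only that these letters are in the window, not that a factor binds there.

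The same letters were counted in all promoters of the table. Of the 39 replication genes 33 had a promoter, and 16 of these (48.5%) held an E2F form, against 6 of 35 (17.1%) for mitosis genes and 824 of 5359 (15.4%) for all genes tested. A CHR form was in 24 of 35 mitosis promoters (68.6%), in 8 of 33 replication promoters (24.2%) and in 766 of all (14.3%). CCAAT was in 74.3% of mitosis, 57.6% of replication and 37.6% of all promoters. Over the genes that rose in lung tumors 22.8% of 879 promoters held an E2F form and 19.5% a CHR form. Over those that fell the shares were 11.7% and 11.9% of 1059. These shares are descriptions without a test.

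Of 18 genes of the Rb and E2F pathway 5 rose (27.8%, against 16.2% of all genes) and 3 fell (16.7%, against 20.4%), with a median change of 0.22. Rbl1, the Rb relative p107, stood at -0.94, -0.73, -0.20 and -0.93 in normal lung and at 1.10, 1.14, 0.95 and 1.23 in tumors, a change of 1.80 ± 0.12 (adjusted p = 5.50e-13). Rb1 itself overlapped between groups, at 0.33, -0.02, 0.68 and 0.42 and 0.65, 0.48, 0.68 and 0.51 (0.23 ± 0.17, adjusted p = 0.312). Skp2, the F-box protein that directs the inhibitor p27 to degradation, rose from -1.16, -0.83, -1.88 and -2.27 to -0.16, -0.26, -0.17 and 0.03 (1.40 ± 0.20). The normal arrays of Skp2 spread widely and still lay below every tumor. The kinase Cdk4 rose by 0.83 ± 0.17, the phosphatase Cdc25a by 0.89 ± 0.14 and Cdkn2b, which encodes the Cdk4 and Cdk6 inhibitor p15, by 0.44 ± 0.11.

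The D-type cyclins, which activate Cdk4 and Cdk6 to phosphorylate Rb, went down. Ccnd1 stood at -0.55, -0.90, -0.35 and -0.13 in normal lung and at -2.41, -2.18, -1.90 and -2.20 in tumors, a change of -1.69 ± 0.36 (adjusted p = 3.26e-04). Ccnd2 stood at -1.06, -0.57, -0.99 and -1.07 and -2.41, -2.46, -2.0 and -1.98, a change of -1.29 ± 0.23, and their partner Cdk6 changed by -0.73 ± 0.28, a call lost without normal arrays 1 or 2 or tumor arrays 1, 2, 3 or 4, at -0.76 to -0.64. In both cyclins every tumor array was below every normal array. The E2F subunits and relatives did not pass (E2f3 0.03, E2f5 0.24, E2f6 -0.12, Tfdp2 -0.18), nor did Ccne1 (0.06), Myc (0.10), Mycn (0.31), Cdkn1c (0.39, although 0.63 ± 0.21 with a call under quantile normalization) or Cdkn2d (0.22).

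Of 18 genes listed as p53 targets none rose and 11 fell (median -0.44). Cdkn1a, which encodes the cell cycle inhibitor p21, stood at -0.50, 0.43, -0.36 and -0.33 in normal lung and at -1.22, -1.32, -1.21 and -0.84 in tumors, a change of -0.96 ± 0.27 (adjusted p = 0.00581). Ccng1, cyclin G1, stood at -0.07, -0.03, 0.26 and 0.22 and -1.38, -1.13, -1.30 and -0.98 (-1.29 ± 0.23). In both genes the groups lay apart. The death receptor gene Tnfrsf10b stood at 2.05, 0.96, 1.58 and 2.12 in normal lung and at 0.11, 0.32, 0.44 and 0.32 in tumors (-1.38 ± 0.21), with tumors closer together than normals. Pltp, the phospholipid transfer protein, had the largest fall in the list (-1.82 ± 0.16). Trp53inp1 (-1.21 ± 0.22), Sesn1 (-0.71 ± 0.14), the epoxide hydrolase Ephx1 (-0.96 ± 0.18) and the phosphatase Ptprv (-0.55 ± 0.15) also fell without overlap. Pmaip1 (-0.43 ± 0.14), Ei24 (-0.33 ± 0.11) and Mdm2 (-0.28 ± 0.11), the ubiquitin ligase of p53, fell with overlapping groups. Their calls were lost when any 1 of the following arrays was left out. Pmaip1 was lost without normal arrays 1 or 4, at -0.34 to -0.33. Ei24 was lost without normal array 4 or tumor arrays 1 or 2, at -0.30 to -0.22. Mdm2 was lost without normal arrays 1 or 3 or tumor arrays 1 or 2, at -0.28 to -0.22. Gadd45a was the gene of the list with the highest change, 0.71 ± 0.29, and did not pass (adjusted p = 0.0567). It was called higher without normal array 4 (0.85) and within the block of neighbouring array database numbers that holds both groups (0.72), so that 1 p53 target rose there. Gadd45a was also called higher with array weights (0.76), with such blocks as a factor (0.90), with a replicate block (0.715) and on the 8 lung arrays alone (0.715). Phlda3 (-0.37), Plk2 (-0.37), Dusp4 (-0.46), Polk (0.07), Zmat3 (0.05) and Thbs1 (0.07) did not pass either. Phlda3 was called lower under quantile normalization (-0.38), on the 8 lung arrays alone (-0.37) and within the shared block (-0.485). Plk2 was called lower with blocks as a factor (-0.50), without tumor array 3 (-0.49) and within the shared block (-0.54). Dusp4 was called lower without normal array 4 (-0.60) and on the 8 lung arrays alone (-0.455). Several of the listed p53 targets are also expressed in endothelium or stroma, whose markers fell in the same arrays (described below). The part of those cells in the falls was not tested.

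Of 7 measured PP2A subunits 2 rose, the catalytic Ppp2cb by 0.38 ± 0.10 and the regulatory Ppp2r2a by 0.44 ± 0.13, both with overlapping groups. The other catalytic subunit Ppp2ca (0.11), the scaffold Ppp2r1a (0.20) and Ppp2r3c (0.11), Ppp2r5c (-0.05) and Ppp2r5e (-0.08) did not pass. The 2 of 7 that passed compare with 36.5% over all genes.

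**Figure D2:**
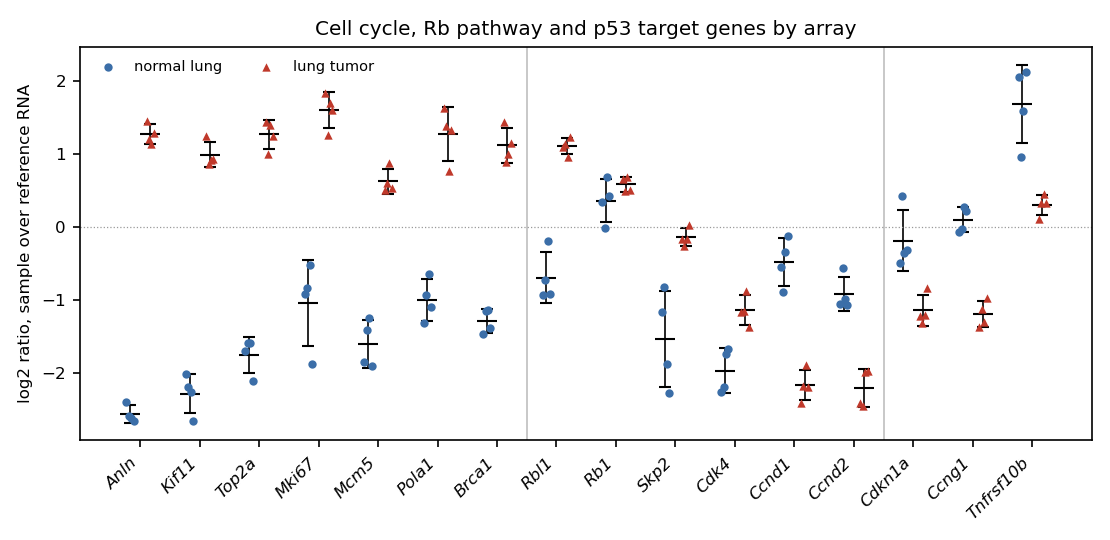
Log2 ratio over reference RNA (y axis) of cell cycle genes (left), Rb pathway genes (middle) and p53 target genes (right) on each array, with normal lung as blue circles, lung tumor as red triangles, and the mean and SD of 4 arrays as black bars. Anln stands near -2.6 in normal lung and 1.3 in tumors, Ccnd1 and Ccnd2 lie lower in tumors, and Rb1 overlaps.

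The gene whose promoter drives the transgene was not called different. Scgb1a1 stood at 6.61, 4.92, 5.85 and 5.00 in normal lung and at 5.69, 5.42, 5.22 and 5.46 in tumors, and the change of -0.15 ± 0.31 did not pass (adjusted p = 0.748). All tumor arrays lay within the range of the normal arrays. This marker depended on scaling, and under quantile normalization, which gives all arrays the same distribution, it rose by 0.64 ± 0.23 (adjusted p = 0.024). Most other club cell markers were lower as deposited. Of 13 measured, 8 fell and 1 rose, with a median change of -0.86, and under quantile normalization 3 fell and 4 rose with a median of -0.11. Cyp2f2, a cytochrome P450 of club cells, stood at 5.77, 5.15, 5.02 and 4.91 in normal lung and at 3.13, 3.66, 3.42 and 3.08 in tumors (-1.89 ± 0.40, adjusted p = 3.58e-04). Cbr2, a carbonyl reductase abundant in mouse airway, stood at 3.87, 2.28, 2.0 and 3.15 and -0.32, 0.76, 0.81 and -0.13 (-2.54 ± 0.26). Scgb3a1, another secretoglobin, stood at 1.77, 1.57, 1.99 and 1.75 and 0.76, 0.54, 0.42 and 0.66 (-1.18 ± 0.16). These 3 markers had no overlap between groups. Under quantile normalization Cbr2 (-2.21 ± 0.23) and Scgb3a1 (-0.98 ± 0.15) still fell, whereas Cyp2f2 did not pass (-0.46 ± 0.41). The selenium-binding protein Selenbp1 (-1.06 ± 0.21), the cytochromes Cyp2b10 (-1.04 ± 0.30) and Cyp4b1 (-0.86 ± 0.25), the retinal dehydrogenase Aldh1a1 (-0.86 ± 0.20) and Bpifb1 (-0.63 ± 0.14) fell as well. Of these only Bpifb1 fell under quantile normalization (-0.54 ± 0.13), where Aldh1a1 turned to 0.21 ± 0.17. The call of Cyp4b1 was lost without normal array 1, at -0.60. Within the block of neighbouring array database numbers that holds both groups, those of Aldh1a1 (-0.71) and Cyp2b10 were lost and Gsta4 was called lower (-0.60). The potassium channel gene Kcnj16 was the 1 that rose (1.08 ± 0.22). Gsta3 (0.18), Gsta4 (-0.45) and Aldh1a7 (-0.11) did not pass, and Gsta3 (0.39 ± 0.12) and Aldh1a7 (0.99 ± 0.25) rose under quantile normalization.

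Among 9 ciliated cell markers 5 fell and 1 rose (median -0.47). Tppp3, a tubulin-binding protein of cilia, stood at 2.64, 0.93, 1.10 and 2.33 in normal lung and at 0.01, 0.40, 0.96 and 0.27 in tumors (-1.34 ± 0.24). Rsph1 of the radial spoke (-0.76 ± 0.19), Dynlrb2 of the dynein complex (-0.64 ± 0.15), Spa17 (-0.57 ± 0.13) and Lrrc23 (-0.47 ± 0.12) were lower. The tubulin Tubb4b rose by 0.85 ± 0.18. Cd24a (0.44), Rfx2 (-0.23) and Mlf1 (-0.10) did not pass. Under quantile normalization 5 fell and 2 rose, with Cd24a called higher at 0.95 ± 0.37. The call of Rsph1 was lost within the shared block of database numbers and on the 8 lung arrays alone.

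Alveolar type 2 markers were lower in 14 of 17 cases and higher in none (median -0.62), and under quantile normalization 8 fell and 1 rose with a median of -0.31. Sftpc, the surfactant protein specific to type 2 cells, stood at 6.99, 6.55, 6.80 and 6.70 in normal lung and at 5.21, 6.26, 6.12 and 5.60 in tumors (-0.96 ± 0.15, adjusted p = 6.20e-06). It was above the reference on every array and lower on every tumor array than on every normal array, but under quantile normalization it did not pass (-0.13 ± 0.12). Slc34a2, the phosphate transporter of these cells, stood at 2.69, 1.07, 1.90 and 2.14 and 0.04, 0.65, 1.07 and 0.54 (-1.38 ± 0.23). Elovl1, an elongase of fatty acids, had the largest fall (-1.73 ± 0.18), followed by the chitinase-like Chil1 (-1.61 ± 0.23), the protease Napsa (-1.10 ± 0.21) and the calcium-binding S100g (-1.09 ± 0.22). All of these but Sftpc fell under quantile normalization as well, as did Lpcat1 of surfactant lipid synthesis (-0.67 ± 0.17 as deposited), Slc31a1 (-0.48 ± 0.11) and Npc2 (-0.53 ± 0.15), the last lost without normal array 4, at -0.39. Sftpd stood at 3.07, 1.70, 1.68 and 3.21 in normal lung and at 1.27, 1.77, 2.64 and 1.52 in tumors, with overlapping groups (-0.61 ± 0.24), and its call was lost without normal arrays 1 or 4 or tumor arrays 1, 2 or 4, at -0.60 to -0.35. The 4 further calls were also lost when any 1 of several arrays was left out, and were not made under quantile normalization. Ctsh (-0.74 ± 0.29) was lost without normal array 1 or tumor arrays 1, 3 or 4, at -0.75 to -0.33. Cxcl15 (-0.62 ± 0.22) was lost without normal arrays 1 or 4 or tumor arrays 1 or 4, at -0.57 to -0.35, and turned to 0.28 ± 0.20 under quantile normalization. Hc (-0.56 ± 0.22) was lost without normal arrays 1 or 4 or tumor arrays 1, 3 or 4, at -0.58 to -0.34. The transcription factor Cebpa (-0.50 ± 0.19) was lost without normal arrays 2, 3 or 4 or tumor arrays 3 or 4, at -0.52 to -0.40. Abca3 (-0.06), the lipid transporter of lamellar bodies, Fabp5 (0.14) and Ppp1r14c (0.11) did not pass. Ppp1r14c was the 1 called higher under quantile normalization (0.43 ± 0.18). Of the features of Abca3 1 was called lower on its own (-0.29) and the other was not called (0.16).

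Of 9 alveolar type 1 markers 6 fell and 1 rose (median -0.86), and under quantile normalization 4 fell and 1 rose with a median of -0.25. Cav1, the caveolin of type 1 cells and of endothelium, stood at 2.20, 1.58, 2.05 and 2.20 in normal lung and at -0.52, -0.44, -0.14 and -0.30 in tumors (-2.36 ± 0.23). Ager, the receptor RAGE of type 1 cells, stood at 3.03, 1.94, 2.86 and 3.18 and 1.55, 1.87, 2.27 and 1.78 (-0.88 ± 0.20). Normal and tumor arrays of Ager overlapped and it did not pass under quantile normalization (-0.25 ± 0.14), whereas those of Cav1 lay far apart. Igfbp2 (-1.47 ± 0.26), Vegfa (-1.23 ± 0.21) and Ahnak (-0.76 ± 0.20) fell. The other that fell was Cyp4b1, which is also counted in the club cell list, and its change of -0.86 is the median of both lists. The call of this shared gene was lost without normal array 1, at -0.60, and under quantile normalization (-0.25 ± 0.22). Aqp5, the water channel of type 1 cells and airway glands, stood at 0.94, 0.32, 0.64 and 1.50 in normal lung and at 1.39, 1.16, 1.93 and 1.58 in tumors, a rise of 0.66 ± 0.20 with overlapping groups that was lost without normal array 2 or tumor array 3, at 0.49 to 0.53. Clic5 (-0.58) and S100a6 (0.53) did not pass, and Clic5 was called lower without normal array 2, at -1.0. The 4 normal arrays were not alike in these lists: mean ratios of the type 2 markers were 2.21, 1.45, 1.68 and 2.15 in normal lung and 0.93, 1.29, 1.36 and 0.99 in tumors, so that normal arrays 1 and 4 were the high ones. Leaving out 1 lung array at a time left 9 to 13 type 2 markers that fell, with 9 without normal array 4 and 9 without tumor array 4. Within the shared block of database numbers, which holds neither normal array 1 nor tumor array 3, 10 fell and Aqp5 was not called.

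General epithelial genes went the other way. Of 19 keratin, junction and epithelial regulator genes 12 rose and none fell (median 0.89). Krt8, a keratin of simple epithelium, stood at -0.76, -0.93, -1.01 and -0.70 in normal lung and at 0.74, 0.74, 0.95 and 0.49 in tumors (1.58 ± 0.19). Krt19 stood at 1.07, 1.02, 0.61 and 1.20 and 2.34, 2.33, 2.23 and 2.13 (1.28 ± 0.21). Both keratins were higher on every tumor array. The tight junction gene Cldn7 rose by 1.30 ± 0.19, the desmosomal cadherin Dsg2 by 1.21 ± 0.18 and the epithelial ETS factor Elf3 by 1.12 ± 0.14. Of 15 basal and squamous markers 4 rose (26.7%, against 16.2% of all genes) and 1 fell (6.7%, against 20.4%). Krt17 rose by 1.14 ± 0.24, Krt16 by 1.30 ± 0.34, Sprr2a1 by 0.99 ± 0.30 (lost without tumor array 3, at 0.80) and Sfn by 0.42 ± 0.11, while Krt6a, named after its value was seen, fell (-0.37 ± 0.14). The call of Krt6a was lost without normal arrays 3 or 4 or tumor arrays 1 or 3, at -0.37 to -0.23. Krt5, named likewise, was called lower without tumor array 4 (-0.55). The defining basal factor Trp63, also named after its value was seen, did not pass (0.02).

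**Figure D3:**
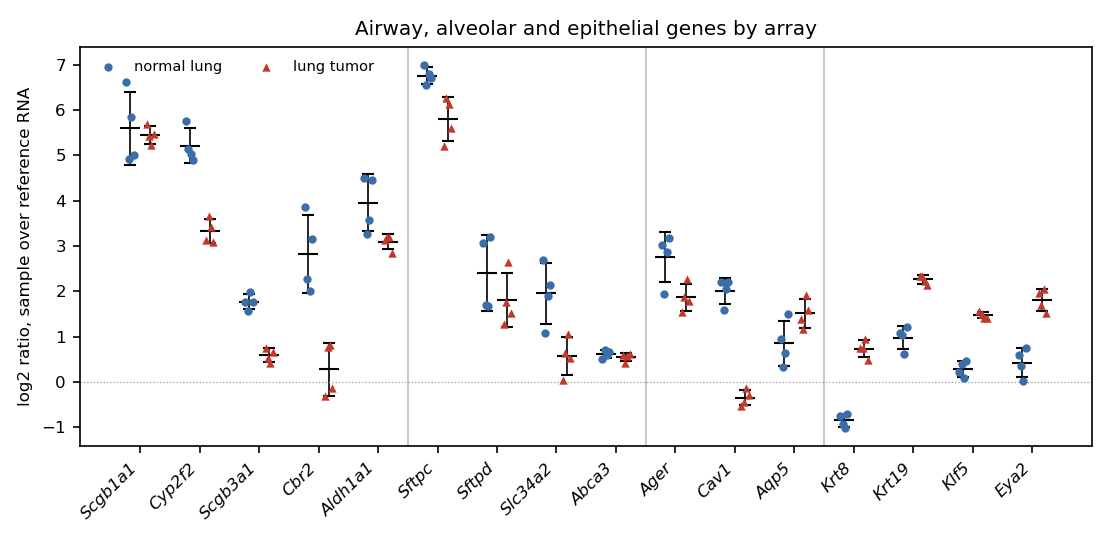
Log2 ratio over reference RNA (y axis) of club cell, alveolar type 2, alveolar type 1 and epithelial or developmental genes (left to right, split by grey lines) on each array, with normal lung as blue circles, lung tumor as red triangles, and the mean and SD of 4 arrays as black bars. Scgb1a1 and Abca3 overlap between groups, Cyp2f2 and Cav1 lie lower in tumors, and Krt8, Klf5 and Eya2 lie higher.

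Of 27 measured regulators of lung development 9 rose (33.3%, against 16.2% of all genes) and 4 fell (14.8%, against 20.4%), with a median of -0.02. Among those of the epithelium, Klf5 stood at 0.21, 0.39, 0.08 and 0.47 in normal lung and at 1.57, 1.49, 1.42 and 1.41 in tumors (1.19 ± 0.19). Eya1 and Eya2, transcriptional cofactors of the developing lung, rose by 1.33 ± 0.25 and 1.39 ± 0.27, and Eya2 stood at 0.59, 0.36, 0.02 and 0.74 in normal lung and at 1.97, 1.70, 2.06 and 1.53 in tumors. All 3 genes were higher on every tumor array. The forkhead factors Foxa2 (0.83 ± 0.21), Foxa1 (0.41 ± 0.13) and Foxp2 (0.57 ± 0.22) rose, as did Sox9 of the distal lung bud (0.57 ± 0.18), Id1 (0.76 ± 0.22) and Id2 (0.68 ± 0.20). The call of Foxa1 was lost without tumor array 1, at 0.33, that of Sox9 without normal array 4, at 0.45, and that of Foxp2 without normal arrays 1, 2, 3 or 4 or tumor arrays 1 or 2, at 0.46 to 0.61, while Foxa2 kept its call at 0.55 without normal array 3. Foxf1, a factor of lung mesenchyme and capillary endothelium, stood at 2.0, 0.85, 1.78 and 2.15 in normal lung and at -0.06, 0.15, -0.02 and 0.29 in tumors (-1.60 ± 0.22). The mesenchymal T-box factors Tbx2 (-0.70 ± 0.16) and Tbx5 (-0.47 ± 0.17) fell with it, the latter lost without normal arrays 1 or 4 or tumor arrays 1 or 3, at -0.45 to -0.39, and Cebpa was the other that fell. Without normal array 4 or tumor array 3 the number that fell was 2. Gata6 (-0.02), Nfib (0.14, or 0.39 ± 0.11 with a call under quantile normalization), Nfia (-0.08), Sox4 (0.04), Sox11 (-0.28), Fgfr2 (0.15), Bmp4 (-0.21), Ptch1 (-0.20) and Hey1 (-0.31) were among the 14 that did not pass. Of the features of Nfib 1 was called higher on its own (0.28).

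Of 14 measured neuroendocrine markers 4 fell (28.6%, against 20.4% of all genes) and none rose in the lung as deposited. Those that fell were Nsg1 (-0.89 ± 0.18), Gap43 (-0.78 ± 0.17), the adhesion molecule Ncam1 (-0.68 ± 0.20) and Eno2 (-0.60 ± 0.23). The call of Eno2 was lost without normal arrays 1, 2 or 3 or tumor arrays 2 or 3, at -0.59 to -0.42. The granule genes Chgb (-0.20) and Scg3 (-0.15), the vesicle protein Syp (0.24), Ddc (-0.22), Uchl1 (0.11), Elavl4 (-0.14), its relative Elavl2 (0.11), Dcx (-0.15), Nnat (-0.13) and Stmn3 (0.37) did not pass. Stmn3, a stathmin of neurons, was called higher under quantile normalization (0.49 ± 0.18) and without normal array 4 (0.48 ± 0.18). Of the 3 features of Elavl2 1 was called higher on its own (0.60) and the others were not (-0.26 and -0.01). In the prostate tumors 13 of the same 14 genes rose, where 29.2% of all genes did. The difference between the lung and prostate changes was itself tested over 6764 genes, of which 1492 were lower in lung (22.1%), and 13 of the 14 neuroendocrine genes were among them. Elavl4, a neuronal RNA-binding protein, changed by 3.93 ± 0.19 in prostate and -0.14 ± 0.20 in lung, a difference of -4.07 ± 0.28 (adjusted p = 3.60e-13).

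Endothelial markers were lower in 28 of 34 cases and higher in none (median -1.0). Tek, the angiopoietin receptor Tie2, stood at 2.91, 2.62, 3.42 and 2.58 in normal lung and at 0.87, 1.06, 0.59 and 0.41 in tumors (-2.15 ± 0.16, adjusted p = 7.81e-12). Thbd, the anticoagulant receptor thrombomodulin, stood at 2.83, 2.09, 2.50 and 2.72 and 0.51, 1.07, 0.51 and 0.50 (-1.89 ± 0.15). Both lay apart between groups. Ly6c1 changed by -2.39 ± 0.26, the flow-responsive factor Klf2 by -1.42 ± 0.21 and the VEGF receptor Flt1 by -1.15 ± 0.12. The mean ratio of the list was 1.89, 1.37, 1.40 and 1.85 on the normal arrays and 0.47, 0.73, 0.69 and 0.41 on the tumor arrays, so every tumor array was lower, and again normal arrays 1 and 4 were the highest. Under quantile normalization 1 marker was called higher, Sparcl1, named after its value was seen (-0.15 as deposited, then 0.68 ± 0.23).

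Stromal genes were lower as well, with 23 of 33 fibroblast and matrix genes and 8 of 16 basement membrane genes lower and none of either higher as deposited. Elastin, Eln, was called higher without normal array 1 (0.37, or 0.26 with all arrays), and the laminin chain Lama5 under quantile normalization (0.41, or 0.32 as deposited), both named after their values were seen. Ogn, the small leucine-rich proteoglycan osteoglycin, stood at 2.39, 1.67, 2.02 and 1.97 in normal lung and at -1.31, -0.62, -1.27 and -1.12 in tumors (-3.09 ± 0.33). Inmt, an indolethylamine methyltransferase abundant in lung, stood at 4.57, 3.75, 2.89 and 4.40 and 0.80, 1.24, 1.35 and 1.29 (-2.73 ± 0.26). Gsn, the actin-severing gelsolin, stood at 3.04, 2.18, 2.44 and 2.89 and -0.29, 0.23, 0.51 and -0.08 (-2.54 ± 0.25). The groups lay apart in each of these genes. Pdgfra, the growth factor receptor of lung fibroblasts, changed by -1.91 ± 0.34 and the proteoglycan Bgn by -1.86 ± 0.20. Of the basement membrane Nid1 changed by -1.70 ± 0.26, Col4a1 by -1.15 ± 0.21, Col4a2 by -1.10 ± 0.20 and Col18a1 by -0.75 ± 0.17. Of 14 pericyte and smooth muscle genes 6 fell and 2 rose. Tagln (-1.47 ± 0.24), Notch3 (-1.18 ± 0.20), Myl9 (-1.15 ± 0.21) and the PDGF receptor Pdgfrb (-0.89 ± 0.16) were among those that fell, and the 2 that rose, named after their values were seen, were Csrp1 (0.94 ± 0.19) and Cnn1 (0.55 ± 0.19), the latter lost without normal arrays 1 or 4 or tumor array 3, at 0.40 to 0.49.

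Leukocyte markers were lower in part. Of 23 macrophage markers 10 fell and 1 rose (median -0.54), or 7 and 2 under quantile normalization, where Aif1, named after its value was seen, was the one gained (0.33). Marco, a scavenger receptor of alveolar macrophages, stood at -0.15, -0.37, -0.35 and -0.27 in normal lung and at -1.03, -0.84, -0.75 and -0.69 in tumors (-0.55 ± 0.10). Mmp12, the macrophage elastase, was the 1 that rose, from -0.07, -0.02, 0.32 and 0.22 to 0.67, 1.22, 0.64 and 0.80 (0.72 ± 0.14). These genes of the same cell type thus moved in opposite directions. Laptm5 changed by -1.35 ± 0.26 and Tyrobp by -0.77 ± 0.18. Of 18 T and NK cell markers 10 fell and none rose, led by Cd6 (-1.0 ± 0.13), Ccl5 (-0.90 ± 0.14), Cd3d (-0.68 ± 0.14) and Cd8a (-0.62 ± 0.11). Of 13 B cell markers 8 fell, with Cd79b of the antigen receptor at -0.83 ± 0.22 and Vpreb3 at -0.74 ± 0.12, and Cd37 rose (1.26 ± 0.23). Leaving out 1 lung array at a time left 4 to 8 B cell markers that fell, with 4 without normal array 1 or tumor array 2 and 5 without normal array 4 or tumor arrays 1 or 4. Of 11 neutrophil granule genes 5 fell, and S100a8 stood at 0.71, 0.77, 0.59 and 2.31 in normal lung and 0.38, 0.16, 0.00 and 0.41 in tumors, with normal array 4 the highest (-0.86 ± 0.22, or -0.46 without that array). The number of neutrophil genes that fell was 3 without normal arrays 1 or 4 or tumor arrays 1 or 4. The mast cell genes Hdc (-0.83 ± 0.15) and Cma1 (-0.80 ± 0.22) fell, while Kit (-0.23) and Tpsb2 (-0.11) did not pass.

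Antigen presentation genes followed in part. Of 8 MHC class II genes 5 fell, with the invariant chain Cd74 at 3.27, 2.17, 2.92 and 2.86 in normal lung and 0.38, 1.49, 1.68 and 0.72 in tumors (-1.74 ± 0.35). H2-DMa changed by -0.83 ± 0.12 and the class II transactivator Ciita by -0.34 ± 0.08, and H2-Ea was the 1 that rose (0.97 ± 0.16). The class II and class I genes have close relatives, and the cross-hybridisation of such features was not tested. Of 19 MHC class I and interferon-induced genes 6 rose (31.6%, against 16.2% of all genes) and 5 fell (26.3%, against 20.4%). The antiviral genes Oasl2 (0.93 ± 0.22) and Rsad2 (0.66 ± 0.17) rose, and Gbp2 (-1.12 ± 0.21) and Ifit3 (-0.89 ± 0.22) fell. The number that fell was 3 without tumor array 1 or 4.

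**Figure D4:**
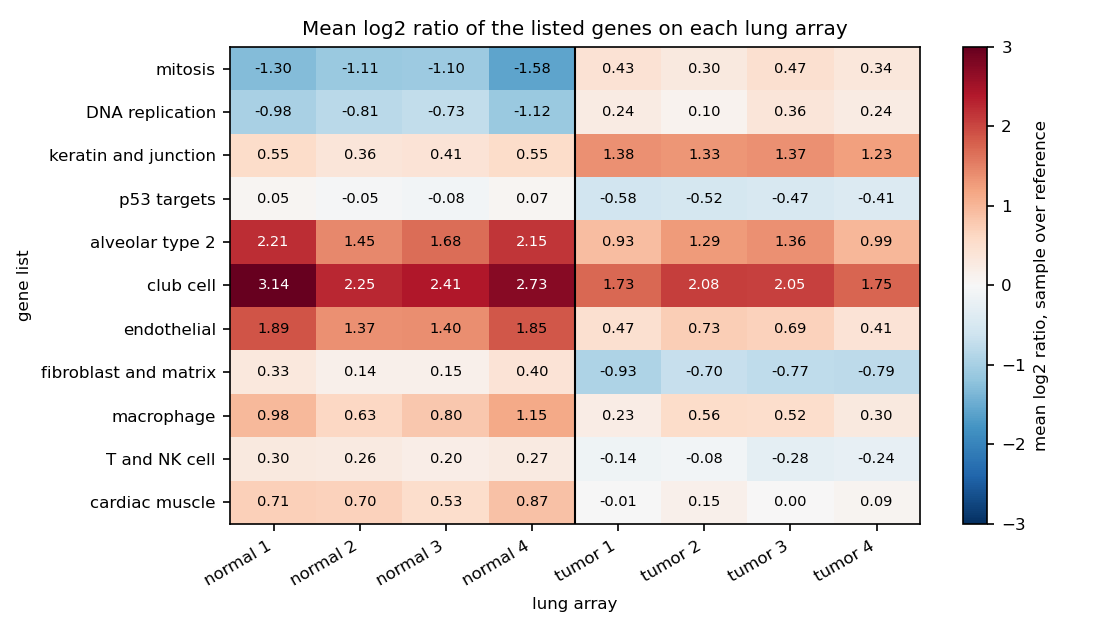
Mean log2 ratio over reference RNA of the members of 11 gene lists (rows) on each of the 8 lung arrays (columns), printed in each cell and coloured from -3 (blue) to 3 (red), with a black line between normal and tumor. The mitosis means are negative on all normal arrays and positive on all tumor arrays, and the club cell, alveolar type 2 and endothelial means are highest on normal arrays 1 and 4.

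Enzymes of xenobiotic and redox metabolism, in which lung airway cells are rich, were lower in 24 of 46 cases and higher in 2 (median -0.55), or 20 and 5 under quantile normalization. Fmo1, a flavin monooxygenase, stood at 4.07, 3.27, 3.73 and 3.23 in normal lung and at 1.62, 1.49, 1.14 and 0.35 in tumors (-2.42 ± 0.28). Aldh2, the mitochondrial aldehyde dehydrogenase, stood at 2.34, 1.57, 1.52 and 2.25 and 0.20, 0.32, 0.25 and -0.32 (-1.81 ± 0.19). In both genes every tumor array was lower. The glutathione transferase Gsta2 changed by -1.63 ± 0.16, and the 2 that rose, named after their values were seen, were the peroxiredoxin Prdx4 (0.88 ± 0.22) and Gclc of glutathione synthesis (0.45 ± 0.13). Prdx4 had no value on normal array 4, so it was not tested when another normal array was left out. Under quantile normalization Gsta3, Aldh1a7 and Cyp2s1 (0.74, named after its value was seen) were the further genes called higher. Hsd11b1, which regenerates active glucocorticoid, had the largest fall of all genes whose groups lay apart, from 5.50, 4.77, 4.94 and 4.38 in normal lung to 1.62, 2.21, 1.25 and 1.36 in tumors (-3.29 ± 0.35). Selenop, the plasma selenium carrier, changed by -2.98 ± 0.22 and the lipid phosphatase Plpp3 by -2.57 ± 0.26. Mup9 of the major urinary proteins stood at 1.28, 4.21, 4.55 and 1.37 in normal lung and at 0.09, -0.04, -0.10 and -0.25 in tumors (-2.93 ± 0.44). Its normal arrays formed 2 levels, with arrays 2 and 3 high. The major urinary proteins are a family of near-identical genes, so the feature may report several of them.

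Of 27 respiratory chain and ATP synthase genes 6 rose (22.2%, against 16.2% of all genes) and none fell, with a median of 0.13. Leaving out 1 lung array at a time left 4 to 8 that rose. Within the block of neighbouring array database numbers that holds both groups (3 arrays of each) 2 rose. Uqcrfs1, the Rieske protein of complex III, was the furthest out (1.38 ± 0.16), ahead of Cox7a2 (0.57 ± 0.17, lost without tumor array 3, at 0.43), Atp5pb (0.47 ± 0.10) and Ndufc2 (0.40 ± 0.12, lost without tumor array 1, at 0.33). Of 12 glycolysis and hypoxia genes 5 fell (41.7%, against 20.4% of all genes) and 2 rose (16.7%, against 16.2%). Pgk1 rose by 0.76 ± 0.17, while Hk1 (-0.61 ± 0.10), P4ha1 (-0.91 ± 0.18) and Vegfa were lower. Of 26 genes of the secretory pathway 6 fell (23.1%, against 20.4% of all genes) and 2 rose (7.7%, against 16.2%). Sel1l (-1.18 ± 0.17), Dnajb9 (-1.19 ± 0.18) and Herpud1 (-0.88 ± 0.13) were lower and the chaperone Calr was higher (0.53 ± 0.15). The other that rose, the disulfide isomerase P4hb (0.41 ± 0.16), named after its value was seen, was lost without normal arrays 1, 2 or 3 or tumor arrays 1 or 3, at 0.27 to 0.42, and was not called within the shared block of database numbers (0.32). Of 16 immediate early genes 5 fell and none rose, among them Ier3 (-1.17 ± 0.21), Gadd45b (-0.57 ± 0.13) and Klf6 (-0.56 ± 0.14).

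Markers of tissues that can lie beside the lung were examined in the same way. Of 21 cardiac muscle genes 10 fell and none rose (median -0.50). In mice cardiac muscle extends along the pulmonary veins. Tnni3, cardiac troponin I, stood at 3.17, 2.42, 2.04 and 2.89 in normal lung and at 0.32, 0.54, 0.32 and 0.17 in tumors (-2.29 ± 0.17), and Tnnt2 changed by -1.22 ± 0.25. All normal arrays of Tnni3 were above all tumors. Of 15 skeletal muscle genes 0 passed by limma and 1 did at an unadjusted p under 0.05. Myh2 was called lower within the shared block of database numbers (-0.47), with such blocks as a factor (-0.79) and on the 8 lung arrays alone (-0.42). Myoglobin Mb changed by -1.03 ± 0.50, did not pass, and was called lower on the 8 lung arrays alone. Of 14 adipocyte genes 4 fell (28.6%, against 20.4% of all genes), namely Cidea (-1.35 ± 0.18), Lpl (-1.34 ± 0.33), Fabp4 (-1.28 ± 0.46) and Lipe (-0.72 ± 0.17). The call of Fabp4 was lost without normal arrays 1, 3 or 4 or tumor arrays 1 or 3, at -1.21 to -1.01. Of 8 mesothelial genes 2 fell (0 without tumor array 1, 1 without normal array 2 or tumor arrays 2 or 4, and 4 under quantile normalization) and 1 rose, and the riser was Krt19, which is also a general epithelial keratin. Over all genes 20.4% fell and 16.2% rose, and the mesothelial counts as deposited and the erythroid counts lay close to these shares. Of 8 erythroid genes 2 fell and 1 rose. The 2 that fell carry the names of embryonic globins, Hba-x (-1.50 ± 0.26) and Hbb-bh1 (-1.48 ± 0.28), and since globin genes are alike in sequence these features may report adult globin from blood. The fall of Hbb-bh1 did not pass under quantile normalization (-0.57 ± 0.27).

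The lung changes were then set beside those of the mammary and prostate tumors. Over 6768 genes the lung and mammary changes correlated with r = 0.458 (Pearson) and rho = 0.382 (Spearman), and over 6764 genes the lung and prostate changes with r = 0.404 and rho = 0.381. These correlations run across genes, which are not replicates of a condition. All arrays share the platform and the reference RNA. Of the 216 genes that rose at least 2-fold in lung, 111 did so in the mammary tumors (51.4% of the lung genes and 50.7% of the 219 mammary genes) and 149 in the prostate tumors (69.0% of lung and 27.9% of 535). Of the genes that fell at least 2-fold 58 were shared with mammary tumors (22.0% of 264 and 19.3% of 301) and 84 with prostate tumors (32.1% of 262 and 13.5% of 623).

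**Figure D5:**
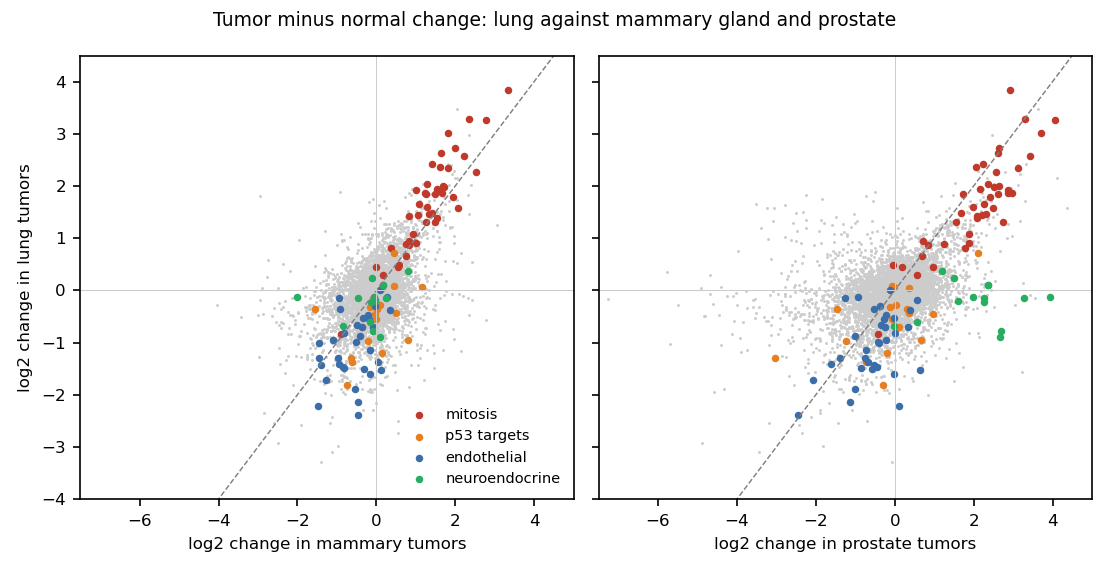
Log2 tumor minus normal change in lung (y axis) against that in mammary gland (x axis, left) and prostate (x axis, right), with all genes tested in grey and 4 gene lists in colour, and the dashed line marking equal changes. Mitosis genes lie at the upper right in both panels, and 13 of 14 neuroendocrine genes rose in prostate and none in lung with the values as deposited.

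The test of the difference from mammary tumors passed for 1635 of 6768 genes (24.2%), 811 with a higher change in lung (12%) and 824 with a lower one (12.2%). Of 18 p53 targets 6 were lower in lung and 1 higher. Cdkn1a changed by 0.80 ± 0.27 in mammary and -0.96 ± 0.27 in lung tumors, a difference of -1.75 ± 0.39 (adjusted p = 0.00107). Of the endothelial genes 10 of 34 were lower in lung and 1 higher, and of the fibroblast and matrix genes 13 of 33 were lower and 2 higher. Of 27 respiratory chain genes 21 had a higher change in lung, where 25 fell in the mammary tumors (20.1% of all genes did), and of 14 adipocyte genes 11 did, where all 14 fell in mammary gland. Of the 43 mitosis genes 5 were higher in lung than in mammary tumors and none lower.

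The difference from prostate tumors passed for 2788 of 6764 genes (41.2%), 1296 higher (19.2%) and 1492 lower (22.1%). Strain and location cannot be told apart in it. Prostate tumor arrays 1 to 4 also lay in a block of database numbers that held no normal prostate array. With the block as a factor 2091 genes passed. Whether such blocks mark separate runs is not stated in the labels used here. Of the 43 mitosis genes 17 had a smaller rise in lung and 2 a larger one, and of the 39 replication genes 13 a smaller rise and none a larger one. Of 19 epithelial genes 16 had a higher change in lung, where 12 rose, while 16 fell in prostate (32.2% of all genes did). Krt8 changed by -3.23 ± 0.18 in prostate, a difference of 4.81 ± 0.27. Cdkn1a changed by 0.66 ± 0.26 in prostate, a difference of -1.61 ± 0.38 (adjusted p = 8.06e-04), and 8 of 18 p53 targets were lower in lung and 2 higher.

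A change that differed from both other tumors in the same direction was found for 622 of 6758 genes (9.2%), 275 with a higher and 347 with a lower change in lung, and the 2 tests share the lung arrays. Clu, the secreted chaperone clusterin, stood at 0.57, 0.52, 0.50 and 0.98 in normal lung and at 2.72, 2.28, 3.20 and 1.90 in tumors (1.88 ± 0.35), against -0.93 ± 0.35 in mammary and -0.50 ± 0.33 in prostate tumors. Rbp4, the plasma retinol carrier, stood at 0.30, 0.96, 1.71 and 1.40 and 3.17, 2.85, 3.28 and 2.31 in lung (1.81 ± 0.34), against -2.96 ± 0.34 in mammary and -0.72 ± 0.32 in prostate. Both rose without overlap in lung and in neither of the other tumors. The carbonic anhydrase Car2 (0.96 ± 0.27), the glutathione transferase Gstk1 (0.87 ± 0.23) and Tlcd4 (1.07 ± 0.33) rose in lung and fell in both of the others. Slc2a4 (-0.20) and Car3 (-0.60), genes of fat and muscle, and the resistin-like Retnla (0.37) did not pass in lung and fell in both others. Retnla was, however, called higher in lung under quantile normalization (1.22 ± 0.44, adjusted p = 0.0248). The features of Car3 differed in lung, where 1 was called lower on its own (-1.39) and the other was not called (0.18). In the opposite direction F2r, the thrombin receptor, stood at 1.48, 0.98, 0.93 and 1.42 in normal lung and at -0.59, -0.23, -0.71 and -0.23 in tumors (-1.64 ± 0.22), against 0.26 ± 0.22 in mammary and 0.23 ± 0.21 in prostate. Hsd11b1 changed by -1.41 ± 0.35 and -0.06 ± 0.34 there, and Pdgfra by -0.15 ± 0.34 and -0.20 ± 0.32. The muscle ankyrin protein Ankrd1 (-2.50 ± 0.34) and the neuronal pentraxin Nptx1 (-1.43 ± 0.28) fell in lung only among the 3 by these calls. The kinase Pak3 (-0.10) and Sox11 (-0.28) did not pass in lung and rose in both others, and Gm11223 rose less in lung (1.25 ± 0.26) than in mammary (3.07 ± 0.26) or prostate (5.97 ± 0.25).

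The 4 lung tumors were alike in most genes and differed in a few. The 8 genes with the largest range over the tumor arrays were Kif20b, Sat1, Krt13, Slpi, Jchain, Gla, Orm1 and Tnnc2. Kif20b, a mitotic kinesin, stood at 1.16, -2.01, 0.74 and 0.87 in tumors 1 to 4, so tumor array 2 alone lay below the normal arrays at -1.26, -0.83, -0.72 and -1.45, and its change of 1.26 ± 0.35 went to 1.99 without that array. Sat1, which acetylates polyamines, stood at 0.07, 0.24, -2.71 and 0.29, with tumor array 3 alone low, and its change of -0.92 ± 0.34 went to -0.19 without that array and lost its call without normal arrays 1, 3 or 4 or tumor array 3, at -0.93 to -0.19. Krt13, a keratin of stratified epithelium, stood at -0.30, 2.24, -0.73 and 2.15, with tumor arrays 2 and 4 high. The protease inhibitor Slpi stood at -2.91, -1.14, -2.30 and -0.65, with the same arrays high, and its fall (-1.20 ± 0.37) was lost without tumor array 1, at -0.82. Gla, a lysosomal galactosidase, was high on tumor array 1 alone (0.53, -1.44, -1.45 and -1.12), and the acute phase gene Orm1 was low on tumor array 4 alone (0.40, 0.36, 0.68 and -1.25). Jchain of plasma cells stood at -4.97, -4.18, -3.20 and -2.98 and the fast muscle troponin Tnnc2 at -0.09, 1.76, 0.21 and 1.08, highest on tumor array 2. The mean ratios of the mitosis list on the same 4 arrays were 0.43, 0.30, 0.47 and 0.34.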

How the data were processed

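The authors deposited log2 ratios, 1 per feature and array, already centred near 0 on the arrays used here. How spots were quantified, corrected for background and filtered is not given in the sources used here. The base and direction are not stated in the labels and were checked on the values. The interaction rule of the series text, with at least 2 values in each group, selected 2638 features when the values were read as log2, which is the number stated there, against 3770 for natural logarithms and 4174 for base 10. Normal lung was higher in lung markers, so ratios were read as sample over reference. The lowest correlation between any pair of the 35 reference arrays was 0.147. Dyes were not swapped, and a dye bias of a feature is the same in both groups.

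Gene names of features came from the platform's annotation and were updated by gene ID to mouse RefSeq names (7395 matched, 91 kept the deposited symbol). The 483 features with several symbols and the 1627 with none were left out, and features of 1 gene were averaged, giving 6777 genes. No listed gene had features called in opposite directions.

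All 35 reference arrays were fitted with 8 group means in limma 3.58.1 (R 4.3.3), so the groups share 1 estimate of the spread. A gene was tested with at least 3 values in each group and called at an adjusted p under 0.05 (Benjamini-Hochberg, over all genes tested). In simulated data of the lung comparison with 6774 genes, 26 of 50 changes of 0.5, 46 of 50 of 1, 49 of 50 of 1.5 and 50 of 50 of 2 were recovered, with 8 false calls among the unchanged genes. Only these genes were changed in the simulation, with independent normal noise of 1 spread per gene on all arrays. In the data 36.5% of the genes passed, so the 8 false calls cannot be carried over to the 2474 calls. Differences between sites were interaction contrasts of the same fit. The number of arrays limits the precision, and the ratios carry no signal strength. The 38 direct mammary arrays were not used. The summaries and plots were made with Python 3.11.15, pandas 2.3.3 and matplotlib 3.10.9.

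The members and the 36 gene lists (1111 genes, 644 measured, some in several lists) were chosen with earlier results of these data known. Genes were named by rule: the 12 largest rises and falls with groups apart, up to 4 members of each list with the smallest p, any measured member of the lung cell type, neuroendocrine, Rb, p53, PP2A and lung regulator lists, the 8 largest differences each way from both other tumors, and the 8 genes with the largest range over the lung tumors. Genes outside it are said to be named after their values were seen. Alternatives were other scalings, filters, weights, priors, blocks, array sets and thresholds, and leaving out each array.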

Additional observations from a re-analysis of the deposited data

Results flagged for a closer look

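Of 613 groups of 4 arrays checked, 35 (5.7%) held 1 array whose gap to the nearest of the others was large for the spread of the group, where chance flags about 1 in 20 such groups. The values are log2 ratios. Normal array 2 stood above the other normals in Ccnd2 (-0.57, others -1.07 to -0.99), Cd37 (1.01, others -0.04 to 0.14) and Krt13 (1.58, others -0.23 to 0.07). Low on normal array 2 were Csrp1 (0.11, others 0.42 to 0.45), Oasl2 (-0.52, others -0.17 to -0.12) and Selenop (2.85, others 4.02 to 4.07). Normal array 3 stood above the other normals in Gmnn (-0.84, others -1.53 to -1.42). Low on normal array 3 were Cd3d (-0.14, others 0.12 to 0.13) and Scg3 (-0.47, others -0.17 to -0.14). Normal array 4 stood above the other normals in Clu (0.98, others 0.50 to 0.57), Col18a1 (-0.087, others -0.30 to -0.27), S100a8 (2.31, others 0.59 to 0.77) Stmn3 (0.37, others -0.12 to -0.05) and the mean of the neutrophil granule genes (1.15, others 0.48 to 0.52). High on tumor array 1 alone were Gla (0.53, others -1.45 to -1.12) and Kif11 (1.24, others 0.86 to 0.92). Tumor array 1 stood below the other tumors in Ephx1 (-0.99, others -0.52 to -0.47), Laptm5 (-1.41, others -0.77 to -0.72), Myc (-1.76, others -1.55 to -1.51) and Nusap1 (-0.39, others 1.04 to 1.28). High on tumor array 2 alone were Hba-x (1.96, others 1.11 to 1.19), Hey1 (1.47, others 1.05 to 1.08) and Thbd (1.07, others 0.50 to 0.51). Tumor array 2 stood below the other tumors in Kif20b (-2.01, others 0.74 to 1.16). High on tumor array 3 alone were Ciita (-0.025, others -0.23 to -0.20), Foxa2 (1.59, others 1.08 to 1.14) and Tubb4b (0.63, others -0.26 to -0.12). Tumor array 3 stood below the other tumors in Ddc (-0.21, others -0.14 to -0.12), Orc5 (-0.47, others 0.07 to 0.15), Sat1 (-2.71, others 0.07 to 0.29) and Zmat3 (-0.81, others -0.23 to -0.12). High on tumor array 4 alone was Slc31a1 (0.22, others 0.03 to 0.06). Tumor array 4 stood below the other tumors in Orm1 (-1.25, others 0.36 to 0.68), Ppp2r1a (-0.59, others -0.25 to -0.20) and S100g (0.38, others 1.24 to 1.42).

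Differences between the tumor changes of 2 sites were tested with interaction terms in limma. The lung change minus the mammary change passed for 1635 genes, and among the genes named it was positive for Car2 2.93, Car3 1.94, Clu 2.81, Gstk1 1.86, Rbp4 4.77, Retnla 2.57, Slc2a4 2.11 and Tlcd4 1.96. It was negative for Ankrd1 -3.03, Cdkn1a -1.75, F2r -1.90, Gm11223 -1.82, Hsd11b1 -1.88, Nptx1 -1.90, Pak3 -1.81, Pdgfra -1.76 and Sox11 -1.77.

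The lung change minus the prostate change passed for 2788 genes. Among the genes named it was positive for Car2 3.61, Car3 3.23, Clu 2.38, Gstk1 2.91, Krt8 4.81, Rbp4 2.53, Retnla 2.05, Slc2a4 2.70 and Tlcd4 2.28. It was negative for Ankrd1 -1.80, Cdkn1a -1.61, Elavl4 -4.07, F2r -1.87, Gm11223 -4.72, Hsd11b1 -3.23, Nptx1 -2.12, Pak3 -3.53, Pdgfra -1.71 and Sox11 -3.33. Strain and site cannot be told apart in the prostate comparison.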

How the results depend on the processing

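The lung comparison called 2474 genes, and between 2186 and 2321 when 1 lung array was left out. Under the other settings of the same threshold the count ranged from 2214 (arrays of the shared block of database numbers alone) to 2787 (quantile normalization), or 3301 features. With at least a 2-fold change as well it was 480, and by the selection of the series text 455. None of the 2474 genes was called in the opposite direction under any of the alternatives compared, and 4 changed sign without a call under quantile normalization. The difference from mammary tumors gave 491 genes at 2-fold and 1429 to 1618 without 1 array. That from prostate tumors gave 1003 and 2559 to 2791. With the block of database numbers as a factor the counts were 1354 for mammary and 2091 for prostate tumors. Read to base 10 the series rule selected 4174 features.

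No pairing of the lung arrays by replicate number was seen. Deviations of same-numbered arrays correlated at -0.18, 0.15, -0.02 and -0.24, and not every array correlated best with its own number. Deviations taken from means of only 4 arrays cannot exclude a pairing. With a replicate block 2388 genes passed, 1493 in the difference from mammary and 2556 in that from prostate tumors. Of the 189 named genes called in lung 38 lost their call under at least 1 alternative and 5 of these only without 1 array, while 24 named genes that did not pass gained a call under at least 1. Under quantile normalization 5 named genes turned sign with a call on 1 side: Aldh1a1 (0.21), Aldh1a7 (0.99), Cxcl15 (0.28), Scgb1a1 (0.64) and Sparcl1 (0.68). The cause was not tested. Named differences that were lost were those of Car3 from mammary tumors under quantile normalization (1.08), and of Ankrd1 (-1.36) and Rbp4 (1.08) from prostate tumors with the block of database numbers as a factor. The files give no signal over background, so the limit set by weak spots could not be assessed.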
